A study of Homo sapiens with 6 samples.

Results

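The genes described are 10 core genes of the ring-shaped complexes that hold and fold chromosomes, picked by name from the 56794 named genes of the authors' deposited table. They are SMC1A, SMC3 and RAD21 of cohesin, SMC2, SMC4, NCAPD2, NCAPG and NCAPH of condensin, and SMC5 and SMC6, which form a complex of their own and belong to neither cohesin nor condensin. RNA was sequenced from 3 libraries labelled CASP8AP2 Mutant and 3 labelled Parental. All came from HEK293, a human embryonic kidney line, and per the series' design text both lines expressed luciferase, while the mutant line had CASP8AP2 deleted with CRISPR. CASP8AP2 encodes a protein of histone message processing, and the study was concerned with recombinant protein yield and arrest at G0/G1. The labels do not say whether the mutant line was 1 clone or whether the replicates were separate cultures, so the deposited p-values measure a spread between samples that may be technical.

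Each of these complexes is built on a pair of SMC proteins, long coiled coils that join at a hinge and bind ATP at the other end, closed by a kleisin subunit. Cohesin holds sister chromatids together from S phase to anaphase and extrudes loops of interphase chromatin up to boundaries bound by CTCF. Condensin compacts chromosomes for mitosis, and the SMC5/6 complex serves DNA repair and replication and restricts some viral DNA. Several condensin genes are known to be transcribed with the cell cycle, with most message in G2 and mitosis.

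The files hold a mean for each group and no value for a single library, so no spread between replicates can be given and each level below is the authors' mean over 3 libraries. Abundance is a length-scaled value, given without the 1 that the authors had added to it. The level of a gene is the sum of its transcripts, and each log2 ratio sets mutant over parental with 1 added to each. From the steps between low values, the mutant libraries were estimated at 13300000, 15000000 and 57500000 reads on transcripts. The parental libraries were estimated at 9190000, 11600000 and 15300000. CASP8AP2 itself had 15.7 in mutant cells and 15.9 in parental cells, so its RNA level does not check the labels. Of the HEK293 lineage genes, VIM, which encodes vimentin, had 530 in mutant and 425 in parental cells. Of other cell types, 0 of 4 blood and 0 of 3 endothelial markers reached an abundance of 1, with CD3E listed at 0 in each group, and 2 of 4 fibroblast and 3 of 4 epithelial markers did. All 3 epithelial ones had lower means in mutant cells: KRT8 had 37.3 in mutant and 70.6 in parental cells, KRT18 51.8 and 57.7, and EPCAM 1.16 and 2.02. Of the fibroblast ones, COL1A1 had 5.82 in mutant and 2.17 in parental cells, and LUM 1.06 and 1.49. For KRT8-201, EPCAM-201 and COL1A1-201 the deposited p-values were 0.0178, 0.0128 and 0.0148, and none of these genes was called over all genes. Among the HEK293 lineage genes NEFM, a neurofilament gene, had 0.0690 in mutant cells and 8.63 in parental cells, and NEFL 434 and 35.7. The part of these differences, and of the depth, in the results below was not tested.

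Of the 10 genes, 9 had a lower level in mutant than in parental cells, and NCAPG alone had a higher one. The median log2 ratio was -0.31, beside -0.01 over the 14856 genes that reached an abundance of 1 in at least 1 group, of which 50.6% were lower in the mutant cells. All 10 passed that minimum, and each did so in both groups. The quartiles of all genes were -0.28 and 0.27, so SMC1A, SMC2, RAD21, NCAPD2 and SMC3 lay below the lower quartile and the other 5 within the middle range. No gene passed the test. With each gene represented by its main transcript, and the p-values of the authors' deposited table adjusted by Benjamini-Hochberg over all 14856 genes, the 10 genes had adjusted p-values from 0.284 to 0.987, and 13 genes (0.0875%) were called in all. At an unadjusted p under 0.05, 4 of the 10 were lower and none higher, against 8.63% of all genes lower and 5.17% higher.

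**Figure D1:**
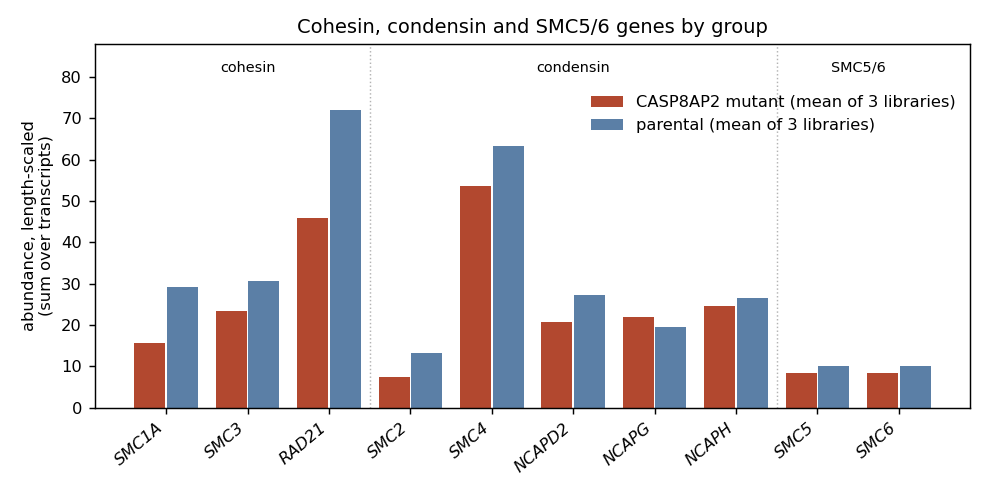
Abundance (length-scaled, summed over transcripts) of the 10 genes, with bars for the means of the 3 CASP8AP2 mutant and the 3 parental libraries. SMC1A has the widest relative gap, with 15.7 in mutant and 29.1 in parental cells, and NCAPG is the one gene whose mutant bar is taller.

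All 3 cohesin genes had lower means in mutant cells. SMC1A, which encodes a core ATPase of the ring, had an abundance of 15.7 in mutant cells and 29.1 in parental cells, a log2 ratio of -0.85, and 2.69% of all genes had a lower ratio. RAD21, the kleisin that separase cuts at anaphase, had 45.8 in mutant and 72.1 in parental cells, a log2 ratio of -0.64. SMC3, the partner of SMC1A and the subunit that is acetylated to make cohesion last, had 23.4 in mutant and 30.7 in parental cells, a log2 ratio of -0.38. The mutant means were thus 54.0%, 63.6% and 76.2% of the parental means for SMC1A, RAD21 and SMC3. On this per-length scale SMC1A and SMC3 were apart in mutant cells (15.7 and 23.4) and near each other in parental cells (29.1 and 30.7). For the main transcript of SMC1A, SMC1A-201, the authors' deposited table gives a p of 0.0454, and for RAD21-201 it gives 0.0339. For SMC3-201, which held all of the gene's abundance, that table gave 0.113. Each of these transcripts had an adjusted p of 0.703 there.

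Condensin genes were more mixed. SMC2, an ATPase of both condensins, had 7.52 in mutant and 13.2 in parental cells, a log2 ratio of -0.74, while its partner SMC4 had 53.5 and 63.4, a log2 ratio of -0.24. Next came the subunits particular to condensin I. NCAPD2, a HEAT-repeat subunit, had 20.6 in mutant and 27.3 in parental cells, a log2 ratio of -0.39. NCAPH, the kleisin, had 24.5 and 26.5, a log2 ratio of -0.11, and NCAPG, the second HEAT-repeat subunit, had 21.8 and 19.5, a log2 ratio of 0.15. The non-SMC subunits stood close to each other in level, from 20.6 to 24.5 in mutant cells and from 19.5 to 27.3 in parental cells, whereas SMC2 was the lowest of the 5 in each group and SMC4 the highest. In the authors' deposited table SMC2-203 has a p of 0.0223, and the main transcripts of NCAPD2, NCAPG and NCAPH have 0.738, 0.945 and 0.543. NCAPD2 and SMC3 had nearly the same log2 ratio, and the deposited p-value of NCAPD2-201 was the higher.

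SMC5 and SMC6 lay just above SMC2 in level in mutant cells and were the lowest of the 10 in parental cells. SMC5 and SMC6 form the ATPase core of a complex that carries a SUMO ligase. SMC5 had 8.49 in mutant and 10.0 in parental cells and SMC6 had 8.49 and 10.2, log2 ratios of -0.22 and -0.24. Their main transcripts SMC6-201 and SMC5-201 have p-values of 0.0347 and 0.354 in the authors' deposited table.

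In level, SMC4 came first in mutant cells at 53.5 and RAD21 next at 45.8, while in parental cells RAD21 came first at 72.1 and SMC4 next at 63.4. After these came NCAPH, SMC3, NCAPG, NCAPD2 and SMC1A in mutant cells, between 15.7 and 24.5, then SMC5, SMC6 and SMC2. In parental cells SMC3, SMC1A, NCAPD2, NCAPH and NCAPG lay between 19.5 and 30.7, with SMC2, SMC6 and SMC5 below them. Without single-library values, whether neighbours in these orders differ beyond their spread cannot be said. At the group mean, each gene would have had an estimated 615 to 3112 reads in the shallowest mutant library and 548 to 2999 in the shallowest parental one. Counting error alone then gives 95% intervals of ±0.03 to ±0.08 on the log2 ratio, which leave out the spread between libraries.

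The 10 genes were listed as 88 transcripts, of which 77 had a deposited p-value for mutant against parental. The other 11 had none for that comparison and a summed abundance of about 0. The authors' deposited table calls none of them and 0.0221% of all 140552 tested transcripts at an adjusted p under 0.05, and the smallest adjusted p among the 77 was 0.505. At an unadjusted p under 0.05, 5 (6.49%) were lower and 1 higher in mutant cells, against 2.48% and 3.30% of all tested transcripts. All 5 were among the 36 that reached an abundance of 1 in at least 1 group, and 6.01% of all tested transcripts of that abundance were lower at that p. They came from SMC1A, RAD21, SMC2 and SMC6, with SMC1A giving 2 of them.

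SMC1A-202, the second transcript of that gene, had an abundance of 3.23 in mutant and 6.43 in parental cells. Its p of 0.00589 is the lowest that the authors' deposited table gives for the 77. SMC1A-201 had 11.3 in mutant and 20.3 in parental cells. SMC1A-205, a processed transcript, had 0.759 and 1.22, and SMC1A-206 had 0.204 and 0.986, so every SMC1A transcript at an abundance of at least 0.5 lay lower in mutant cells. RAD21-201, with 40.9 in mutant and 66.8 in parental cells, held 89.4% and 92.7% of that gene. The smaller RAD21-204 lay the other way, with 1.77 in mutant and 1.12 in parental cells. SMC2-203 had 4.41 and 8.52, and SMC2-201 had 2.49 and 4.19, so both SMC2 transcripts at an abundance of at least 0.5 lay lower in mutant cells. The minor SMC2-205 lay higher, with 0.427 in mutant and 0.275 in parental cells. For SMC2-201 the authors' deposited table gives a p of 0.0891.

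In SMC6, SMC4 and NCAPH the transcripts at that abundance were split between both sides. SMC6-201 had 4.07 in mutant and 6.24 in parental cells, and SMC6-207 had 1.72 and 2.31. By contrast SMC6-203 had 1.26 in mutant and 0.588 in parental cells, and SMC6-202 had 0.629 and 0.313. The share of SMC6-201 in the gene was 48.0% in mutant and 61.4% in parental cells, and the gene ratio of -0.24 was smaller in size than the -0.52 of its main transcript. The authors' deposited table gives p-values of 0.302 and 0.132 for SMC6-203 and SMC6-202. In SMC4, 8 of 12 transcripts at an abundance of at least 0.5 lay higher in mutant cells and 4 lower. SMC4-203 had 16.9 in mutant and 25.7 in parental cells, for which the authors' deposited table gives a p of 0.0539, and SMC4-202 had 5.79 and 10.2. SMC4-201, the main protein-coding form, had 10.9 and 11.6, and SMC4-204 had 2.51 and 1.28. The single higher transcript at a p under 0.05 among the 77, SMC4-217, was picked after its values were seen: it had 0.207 in mutant cells, was listed at 0 in parental cells, and the authors' deposited table gives it 0.0104. In NCAPH, 3 transcripts lay higher and 2 lower. NCAPH-201, which held the most of it, had 13.5 in mutant and 16.2 in parental cells, and NCAPH-203 had 4.94 and 4.13.

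In NCAPD2 and NCAPG the transcripts lay on 1 side. All 8 NCAPD2 transcripts at an abundance of at least 0.5 lay lower in mutant cells, with p-values from 0.233 to 0.995 in the authors' deposited table, and all 4 of NCAPG lay higher, with p-values from 0.283 to 0.945 there. NCAPG-201 had 10.7 in mutant and 10.3 in parental cells. Over all genes of the set, 28 of 46 transcripts at that abundance lay lower in mutant cells and 18 higher. Among protein-coding ones it was 16 lower of 26.

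**Figure D2:**
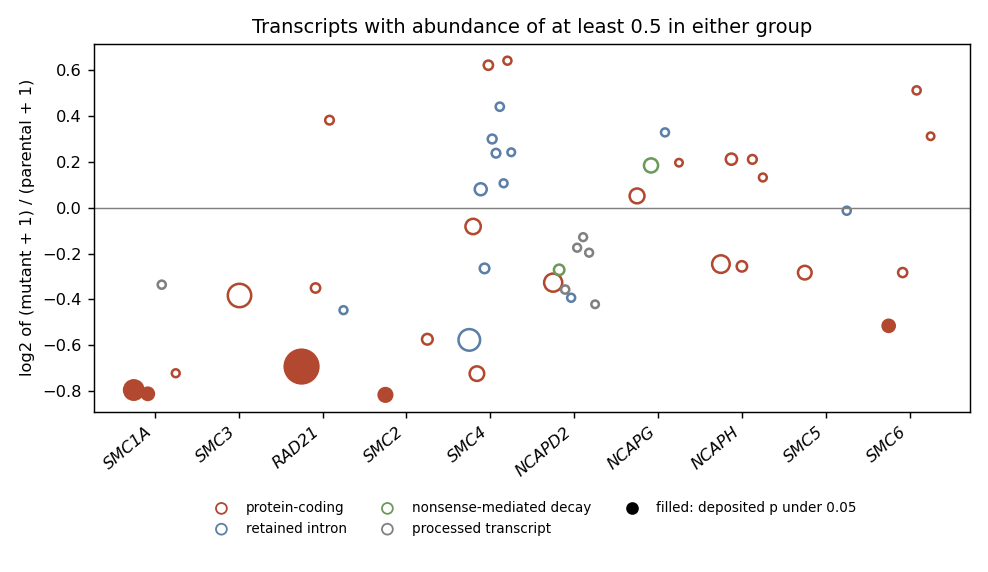
Log2 ratio of mutant over parental for each transcript that reached an abundance of 0.5 in at least 1 group, by gene, with colour for the annotated type and circle area growing with abundance. The 5 filled circles, at a deposited p under 0.05, belong to SMC1A, RAD21, SMC2 and SMC6 and all lie below 0, and SMC4 spans both sides.

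By annotated type, SMC4 and NCAPG stood apart from the rest. Transcripts annotated as retaining an intron held 60.1% of SMC4 abundance in mutant cells and 61.9% in parental cells, and SMC4-203, the most abundant transcript of the gene, is one of them. Protein-coding SMC4 transcripts alone summed to 21.1 in mutant and 23.8 in parental cells. Next to SMC2, at 7.09 and 12.9 in its protein-coding forms, SMC4 was still the more abundant partner in each group. In NCAPG, transcripts annotated for nonsense-mediated decay held 43.1% in mutant and 41.8% in parental cells, all of it NCAPG-205. Elsewhere protein-coding forms made up at least 90.6% in mutant and 93.9% in parental cells, except in NCAPD2, at 65.9% and 63.7%, and SMC5, at 81.2% and 85.7%. The estimates rest on the authors' sharing of reads between overlapping transcripts.

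**Figure D3:**
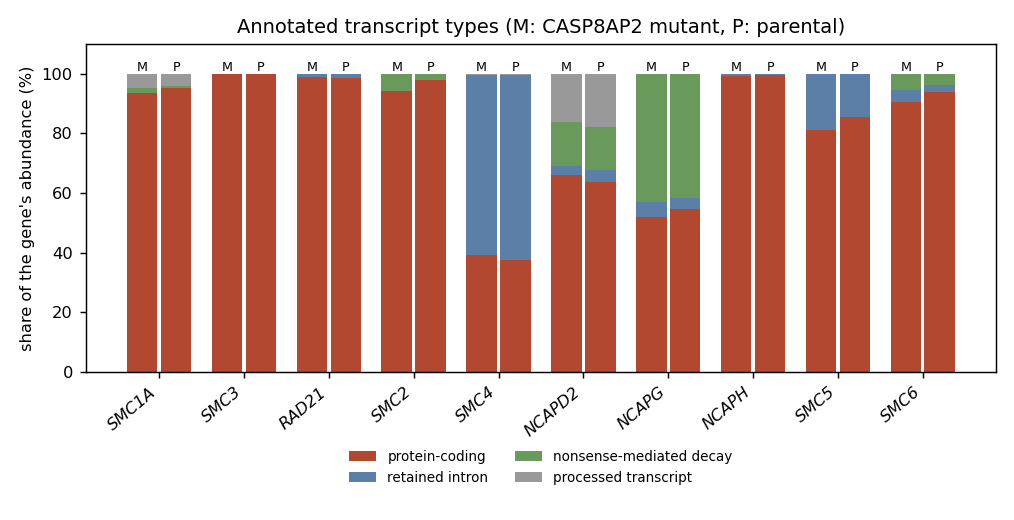
Share of each gene's abundance held by each annotated transcript type, with mutant (M) left of parental (P). Retained-intron transcripts fill 60.1% of the mutant and 61.9% of the parental SMC4 bar, and no other gene has as much of that type.

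GC content went with part of the pattern. Across all genes the median log2 ratio was 0.25 in the GC-richest of 20 bins and -0.16 in the bin with the lowest median, and 9 of the 10 genes had most abundant transcripts between 34.8% and 47.8% GC, with NCAPD2 at 52.5%. With the median of each gene's bin taken off, 9 of the 10 still lay below 0 and the median was -0.16. SMC1A was then at -0.80, SMC2 at -0.60, RAD21 at -0.48, NCAPD2 at -0.41 and SMC3 at -0.22. SMC4, SMC5, SMC6 and NCAPH lay between -0.10 and -0.07, and NCAPG at 0.32.

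**Figure D4:**
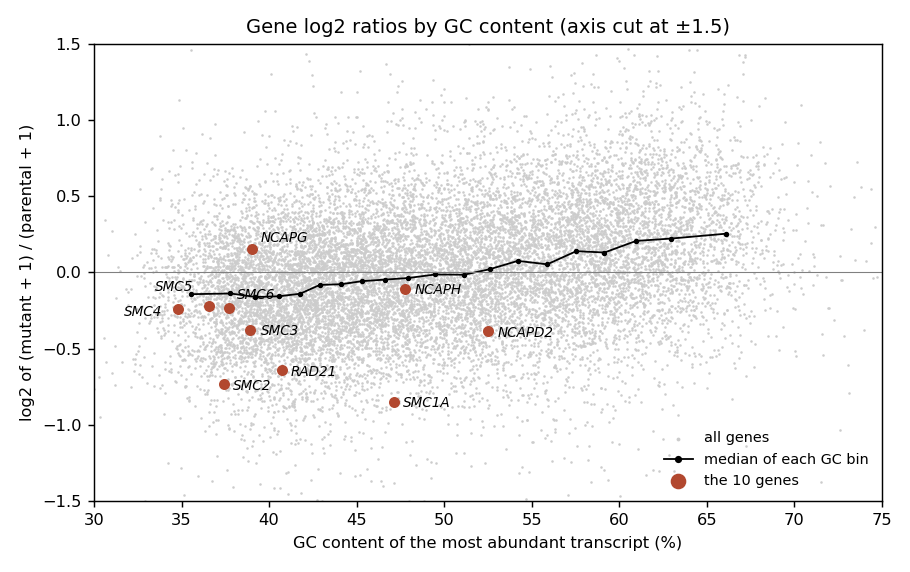
Log2 ratio of mutant over parental against the GC content (%) of the most abundant transcript, for all genes (grey), the median of each GC bin (line) and the 10 genes (labelled). SMC1A, SMC2, RAD21 and NCAPD2 lie well under the line, SMC3 less far under it, SMC4, SMC5, SMC6 and NCAPH near it, and NCAPG above it.

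Position and overlap were compared too, on build hg38. The 10 genes lie on 8 chromosomes, with SMC2 and SMC5 on chromosome 9 and NCAPH and SMC6 on chromosome 2. RAD21 lies on chromosome 8. SMC1A lies at chrX:53374149-53422728 on the minus strand, SMC3 at chr10:110567691-110604636 on the plus strand and SMC2 at chr9:104094260-104141417 on the plus strand. Expressed genes within 5 Mb of SMC1A had a median log2 ratio of 0.09 over 68 genes, and those around SMC2 of -0.08 over 31. Around RAD21, NCAPD2, SMC4 and SMC6 the neighbours had medians of -0.34 (18 genes), -0.32 (89), -0.29 (31) and -0.27 (19), and around NCAPG 0.14 (19). Around NCAPH, itself lower in mutant cells, the median was 0.11 (57), and around SMC5 and SMC3 it was 0.01 (27) and -0.03 (24). The part of the neighbourhood in the levels of these genes was not tested.

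The library kit was not stated to keep strand, so reads of genes on the opposite strand cannot be told apart where they overlap. Over SMC6 lies GEN1, which encodes a Holliday junction resolvase, with 7.04 in mutant and 5.85 in parental cells. UTP23 overlaps RAD21 by 3529 bases, with 4.58 in mutant and 7.66 in parental cells, and LCORL overlaps NCAPG by 3664 bases, with 6.28 and 4.74. TRIM59 overlaps SMC4 by 2518 bases and had 6.01 and 7.58. The most abundant of the overlapping genes was MRPL51, of the mitochondrial ribosome, which overlaps NCAPD2 by 486 bases and had 43.6 in mutant and 82.3 in parental cells. The named pseudogenes SMC4P1, NCAPD2P1, NCAPGP1 and NCAPGP2 had at most 0.0663 in either group.

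Promoter sequence was taken from RefSeq (GRCh38.p14) for 9 of the 10 genes, all but RAD21, as 250 bases before each start. Those of SMC1A, SMC2, SMC3 and SMC4 are printed to set the SMC partners of cohesin and condensin beside each other, and that of NCAPG because it was the gene higher in mutant cells. Capitals mark matches on either strand to CCAAT (the NF-Y box), TTTGAA (a form of the CHR element of cell cycle genes), GCGCGAA or GGCGGGA (forms of E2F elements), and nothing is in capitals where there was none. TTTAAA and CACGTG were searched as well and had no match in any window of these genes.
SMC1A promoter (chrX:53422729-53422978, minus strand): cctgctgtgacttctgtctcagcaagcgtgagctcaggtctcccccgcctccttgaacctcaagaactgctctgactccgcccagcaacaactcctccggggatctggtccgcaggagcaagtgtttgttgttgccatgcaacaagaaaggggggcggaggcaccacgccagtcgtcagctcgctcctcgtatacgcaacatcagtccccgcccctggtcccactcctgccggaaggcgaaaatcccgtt
SMC2 promoter (chr9:104094059-104094308, plus strand): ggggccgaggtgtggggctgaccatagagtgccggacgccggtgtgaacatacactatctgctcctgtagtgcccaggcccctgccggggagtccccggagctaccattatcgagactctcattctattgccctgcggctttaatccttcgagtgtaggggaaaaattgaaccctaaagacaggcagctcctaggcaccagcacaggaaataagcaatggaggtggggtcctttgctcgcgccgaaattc
SMC3 promoter (chr10:110567445-110567694, plus strand): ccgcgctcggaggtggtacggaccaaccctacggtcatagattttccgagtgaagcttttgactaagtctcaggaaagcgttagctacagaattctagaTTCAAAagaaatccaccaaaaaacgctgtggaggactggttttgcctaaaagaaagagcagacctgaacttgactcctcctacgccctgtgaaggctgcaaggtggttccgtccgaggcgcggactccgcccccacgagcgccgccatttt
SMC4 promoter (chr3:160399400-160399649, plus strand): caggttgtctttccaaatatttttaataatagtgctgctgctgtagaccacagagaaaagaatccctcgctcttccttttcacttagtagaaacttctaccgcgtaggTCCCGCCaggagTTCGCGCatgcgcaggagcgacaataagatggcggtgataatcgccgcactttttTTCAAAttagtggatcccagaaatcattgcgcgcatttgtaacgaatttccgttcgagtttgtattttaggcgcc
NCAPG promoter (chr4:17810729-17810978, plus strand): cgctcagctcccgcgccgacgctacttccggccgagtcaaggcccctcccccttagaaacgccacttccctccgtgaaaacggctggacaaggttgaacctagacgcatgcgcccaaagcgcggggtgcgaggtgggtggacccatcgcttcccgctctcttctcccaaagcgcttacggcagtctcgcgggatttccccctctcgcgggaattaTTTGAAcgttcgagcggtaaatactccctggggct

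The SMC1A window ends where SMC1A-201 and SMC1A-202 start, and it held no match. SMC2-203 starts 17 bases after the start that the SMC2 window was drawn from, and that window held no match either. A second SMC2 window, drawn from a start 301 bases after that of SMC2-203, held GGCGGGA 3 times in a row, within the span of that transcript. Counted from the RefSeq start that each window was drawn from, TTTGAA lay 35 bases before it in NCAPG, 75 bases before it in SMC4 and 151 bases before it in SMC3. NCAPG-201 starts 77 bases before that RefSeq start, so in NCAPG the match lies inside this main transcript, and NCAPG-205 starts 43 bases after it. SMC4 also held GCGCGAA and GGCGGGA, at 130 and 142 bases before the start used by SMC4-210, a minor form with 1.14 in mutant and 0.371 in parental cells. SMC4-202 starts 346 bases before that start, so the matches lie within its span, and SMC4-201 starts 832 bases after it, within a second SMC4 window that held no match. NCAPD2 held CCAAT 4 times and TTTGAA, but NCAPD2-201 starts 723 bases before the start that its window was drawn from. Among all 35116 RefSeq windows of that length, CCAAT was in 32.0%, TTTGAA in 13.3%, TTTAAA in 11.3%, GCGCGAA in 1.85%, GGCGGGA in 13.5% and CACGTG in 6.34%. Of the 12 windows of these genes, CCAAT was in 2, TTTGAA in 4, GCGCGAA in 2 and GGCGGGA in 2. The 4 genes with TTTGAA, which were SMC3, SMC4, NCAPD2 and NCAPG, had log2 ratios on both sides of 0.

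Genes that work with these complexes were read in 6 lists by role, of 40 genes with 36 at an abundance of at least 1. In all 25 of the 36 lay lower in mutant cells and 11 higher, with a median log2 ratio of -0.17. Over all genes 50.6% were lower and the median was -0.01. GC bin medians were not taken off the ratios of these partner genes. The medians of their bins ran from -0.16 to 0.25. Of the genes lower in mutant cells, WAPL, PDS5A, ESCO1, SGO1 and TOP2A lay above the medians of their bins and the rest below. All the higher genes lay above theirs. None of the 36 was called over all genes. At an unadjusted p under 0.05 for the main transcript 4 were lower and 1 higher, beside 8.63% and 5.17% of all genes. Among the other cohesin subunits, STAG1 had 3.31 in mutant and 7.34 in parental cells, and the authors' deposited table gives STAG1-202 a p of 0.00257. STAG2, the more abundant alternative to STAG1, had 31.1 and 37.0, and REC8, a meiotic kleisin, had 3.18 and 2.06. The germline subunits STAG3, SMC1B and RAD21L1 were under the minimum, at 0.634, 0.226 and 0.0132 in mutant cells and 0.756, 0.125 and 0.0257 in parental cells.

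Loading, release and acetylation factors, listed with CTCF, had 8 lower and 2 higher of 10, with a median of -0.15. Among the lower ones WAPL, PDS5A and ESCO1 had log2 ratios of -0.11, -0.06 and -0.06. Their GC bins had medians of -0.16, -0.14 and -0.14. NIPBL, PDS5B, ESCO2, HDAC8 and CTCF lay below the medians of their bins, and MAU2 and CDCA5 above theirs. ESCO2, the acetyltransferase that acts on SMC3 in S phase, had 2.93 in mutant and 6.34 in parental cells, and PDS5B, which binds the ring and guards that mark, had 3.66 and 4.55. CDCA5, or sororin, which protects acetylated cohesin, lay the other way at 39.8 and 31.7. The main transcripts of ESCO2, PDS5B and CDCA5 had p-values of 0.0317, 0.0468 and 0.0300 in the authors' deposited table. Genes of protection and cleavage had 3 lower and 1 higher, with SGO2, a shugoshin, at 4.77 and 5.76 and ESPL1, which encodes separase, at 15.9 and 12.3. Genes that help to set cohesion at the replication fork had 4 lower and 3 higher of 7 and a median of -0.06, with TIPIN at 14.8 and 23.6 and CHTF18 at 34.0 and 18.3 in mutant and parental cells. CHTF18 was 65.1% GC and TIPIN 41.3%.

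Other condensin genes had 4 lower and 2 higher of 6. MCPH1, which restrains condensin II, had 2.50 in mutant and 6.69 in parental cells, a log2 ratio of -1.14. The authors' deposited table gives MCPH1-203 a p of 0.00591. MCPH1 lies on chromosome 8, as do ESCO2, DSCC1 and NSMCE2 of these lists, all lower in mutant cells. RAD21 of the 10 genes lies on that chromosome too, with a log2 ratio of -0.64. Neighbours of partner genes were not compared, and the part of position in their levels was not tested. The subunits particular to condensin II did not share a direction: NCAPD3 had 18.0 and 22.0, NCAPG2 31.4 and 28.9, and NCAPH2 51.1 and 36.7 in mutant and parental cells. NCAPD3 and NCAPG2 were named after their values were seen. NCAPH2 was 62.1% GC. Of the other SMC5/6 genes 4 were lower and 2 higher of 6, with NSMCE1 at 16.9 and 25.7 and NSMCE3, a MAGE-family subunit, at 6.09 and 5.11.

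**Figure D5:**
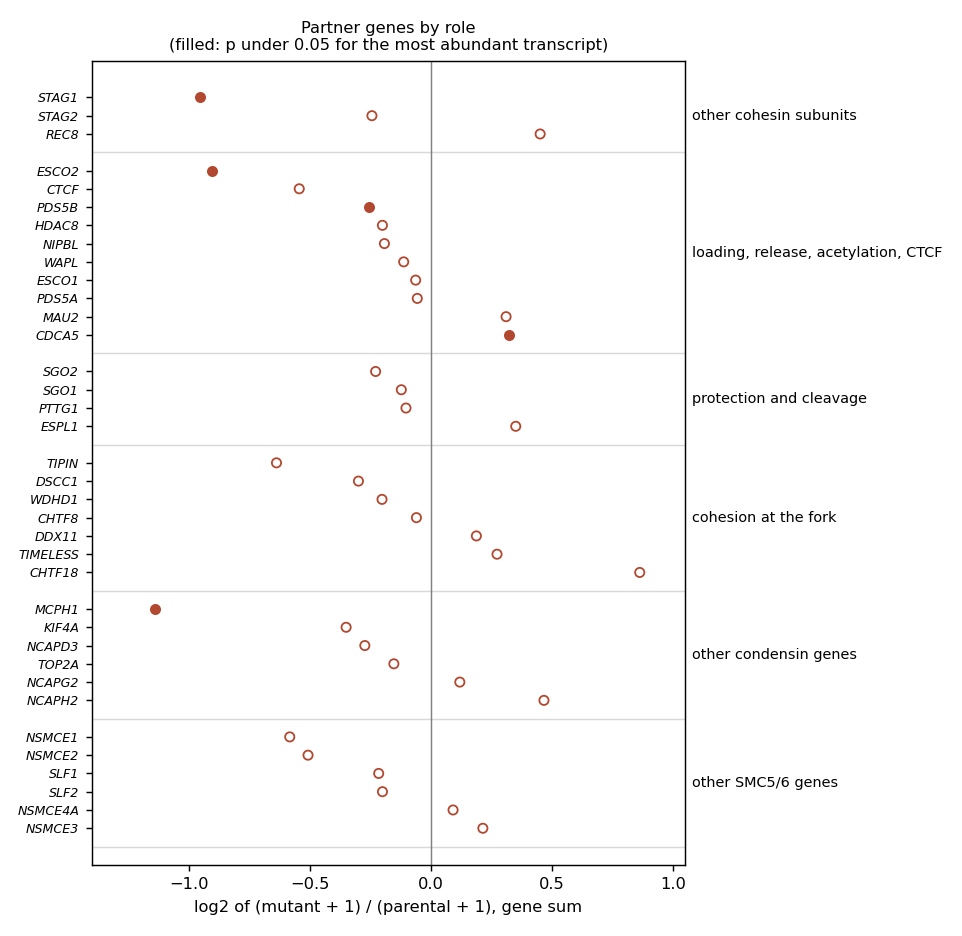
Log2 ratio of mutant over parental (gene sums) for 36 partner genes, grouped by role, filled where the most abundant transcript had a deposited p under 0.05. MCPH1, STAG1, ESCO2 and PDS5B are the filled points left of 0 and CDCA5 the one to the right.

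Markers of proliferation gave no common direction beside these genes. PCNA, the replication clamp, had 139 in mutant and 352 in parental cells, and the authors' deposited table gives PCNA-201 a p of 0.0191. CCNB1, cyclin B1, had 50.3 and 63.1, CDK1 had 95.4 and 95.0, and MKI67, the Ki-67 gene, had 23.2 and 18.4. In bulk RNA, fewer cells in a cell cycle phase and less RNA per cell cannot be told apart.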

How the data were processed

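RNA of 6 HEK293 libraries, 3 per group, was reverse transcribed with random primers per the labels' protocols. The tools bcl2fastq, STAR and Partek and build hg38 are named in the submitters' processing notes. The deposited scores called LSMean are group means of a length-scaled abundance plus 1, read so from the values, and summed to 496162 in each group with 1 taken off. The deposited signal called total counts sums the libraries and holds no read counts. The deposited p-values, ratios and fold changes, held as scores, are the authors' own, and their adjusted p-value covers 140552 transcripts.

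The design named a test of single libraries where the file held them. It holds group means, so the deposited p-values were used, and per gene the p-value of the main transcript was adjusted by Benjamini-Hochberg over genes at an abundance of at least 1 (Python 3.11.15, pandas 2.3.3), a step tested on simulated data. GENCODE release 29 gave type, length and GC content for 99.1% of transcript names. Depth was estimated from the value of 1 read at transcripts with reads in 1 library. Named were all 10 genes, main transcripts, those at a deposited p under 0.05, and in each partner list the genes at that p and the extremes. Minor transcripts, markers, overlapping genes and partner genes named for their GC bin or chromosome were picked after values were seen. The genes, lists and tests were chosen with earlier results of these data known. A planned comparison of the SMC proteins was not run.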

Additional observations from a re-analysis of the deposited data

How the results depend on the processing

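The number of genes lower in mutant cells, 9 of 10, was the same with 0.1 added in place of 1, with protein-coding transcripts alone, with the most abundant transcript alone, with the median of all genes set to 0, with the median of the GC bin taken off and, added after the data were seen, without retained-intron transcripts. The median log2 ratio ran from -0.45 to -0.16 over these. Of 60 single-gene values, 0 changed sign, 38 moved by less than counting error and 22 by more. Part of the 38 could not have moved further. Taking off the median of all genes, -0.0055, shifted every gene alike by less than counting error. SMC3-201 held all of SMC3, so choices among transcripts left that gene as it was. SMC1A and SMC2 had no abundance in retained-intron transcripts to leave out. SMC4 ran from -0.58 with its main transcript alone, the retained-intron SMC4-203, to -0.10 with the GC bin median taken off. SMC6 ran from -0.52 to -0.10 and NCAPG from 0.05 to 0.32. Calls numbered 0 at an adjusted p under 0.05 or 0.01, with the p-value of the factor Type, with a new adjustment over transcripts at an abundance of at least 1, and per gene at a minimum of 1, of 5 or with none. The count at 0.01 followed from that at 0.05. The count of 5 lower transcripts at an unadjusted p under 0.05 was also 5 with the factor Type and at an abundance of at least 1, 2 alternatives added after the data were seen. Neither could change the count. Each transcript with both p-values had the same value for the factor Type as for mutant against parental, and all 5 had an abundance of at least 1. Of partner genes, 25 lay lower in mutant cells with 1 or 0.1 added and 24 of 34 at a minimum of 5. No paired analysis was possible because the files hold group means without single libraries. For the same reason leaving out each replicate was not run. Of the effects that depth may have, only counting error was estimated, and others were not tested.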
